A study of Homo sapiens with 8 samples.

Results

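Cell cycle and DNA replication genes were examined for H3K27ac, an acetyl mark on lysine 27 of histone H3 that is found at active promoters and enhancers. The members were a list of 54 named genes among 19663 protein-coding genes of GENCODE release 44 (hg38). They comprised 20 genes of origin licensing and the replicative helicase, 4 genes of the replication fork, 8 cyclins, 4 cyclin-dependent kinases, 8 E2F factors, 3 RB family genes and 7 genes of checkpoint control and mitosis. H3K27ac was mapped by chromatin immunoprecipitation and sequencing (ChIP-seq) in pancreatic progenitors (PPs) made from the human embryonic stem cell line MEL1. The labels give MEL1 as the line's background, and the study's methods name it MEL1 INS GFP/W, in which 1 insulin allele carries GFP. All PPs were kept in EF6, a medium holding B27, EGF, bFGF and 616452, an inhibitor of TGFβ signalling. The control group received the solvent DMSO (2 libraries), and the treated group received 1 μM I-BET151 for 7 days (2 libraries). I-BET151 blocks the bromodomains with which BET proteins hold acetylated chromatin. The other 4 of the 8 libraries of the series were inputs, chromatin sequenced without immunoprecipitation, and were used here only through the peak lists. The labels name 1 cell line and do not say whether the replicates came from separate cultures, so their spread may be technical.

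In the G1 phase of the cell cycle, the origin recognition complex, CDC6 and CDT1 load the MCM helicase onto DNA, and CDC45 and the GINS complex later switch it on. Cyclin D with CDK4 or CDK6, and then cyclin E with CDK2, phosphorylate the RB family proteins, which releases E2F factors to drive genes of DNA synthesis, many of which carry E2F sites close to their start. Pancreatic progenitors are dividing cells of the embryonic gut endoderm that give rise to the endocrine, ductal and acinar pancreas, and their expansion in culture depends on this machinery.

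The 4 peak lists held between 12312 and 14248 peaks. Their read totals, estimated from the lists, were 7.76 to 9.84 M ChIP reads and 2.67 to 3.04 M input reads each. The DMSO lists were the longer and covered 9.91 and 9.87 Mb, against 9.19 and 8.62 Mb for I-BET151. Of 10 marker genes of pancreatic progenitors 9 held peaks in all 4 libraries, whereas 0 of 6 endocrine and 0 of 4 neural markers did so in any. Of 5 pluripotency markers 1 held peaks, as did 3 of 6 hepatic and intestinal, 2 of 5 mesenchymal and 1 of 3 immune and endothelial markers. Covered length of the progenitor markers summed to 40804 and 39537 bp with DMSO, against 47108 and 44994 bp with I-BET151. A peak list records where a mark passed a threshold over a whole culture, so fewer marked cells and a weaker mark per cell cannot be told apart. Likewise, a gene without a peak may still carry acetylation below the threshold.

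E2F sites were searched for in the promoters of the list because many genes of DNA synthesis carry them close to their start. RefSeq promoter windows (GRCh38.p14, 250 bases before to 50 after a start) were matched to 44 members, which had 60 windows. The letters TTTGGCGC, TTTCCCGC, TTTCGCGC or TTTGCCGC, on either strand, stood in 19 of these windows (31.7%), against 4.1% of the 21574 windows of all genes. The CCAAT box (CCAAT) stood in 65.0% of the members' windows and in 34.8% of all. The cell cycle homology region (TTTGAA or TTCGAA) stood in 16.7% against 13.7%, and the AP-1 letters (TGANTCA) in 3.3% against 6.2%. Letters of different motifs overlapped in 2 cases. Upstream stretches of 3 genes are printed because their genes had no peak in at least 1 DMSO library and a promoter peak in both I-BET151 libraries. E2F and CCAAT letters, and the cell cycle homology region at the start of the MCM6 stretch, are in capitals, and each stretch reads 5′ to 3′ on the strand of its gene.
E2F2, chr1:23531234-23531483, minus strand: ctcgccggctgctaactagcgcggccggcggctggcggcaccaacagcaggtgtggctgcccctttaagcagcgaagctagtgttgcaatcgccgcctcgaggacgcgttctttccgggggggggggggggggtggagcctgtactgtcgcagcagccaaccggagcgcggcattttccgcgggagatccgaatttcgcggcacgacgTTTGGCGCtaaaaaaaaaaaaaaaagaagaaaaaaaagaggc
MCM6, chr2:135876444-135876693, minus strand: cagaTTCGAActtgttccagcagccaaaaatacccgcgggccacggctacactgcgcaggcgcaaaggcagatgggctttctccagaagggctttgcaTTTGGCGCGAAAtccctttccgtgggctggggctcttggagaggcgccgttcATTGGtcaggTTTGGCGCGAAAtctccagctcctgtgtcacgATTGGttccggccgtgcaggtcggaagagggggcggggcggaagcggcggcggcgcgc
POLA1, chrX:24693668-24693872, plus strand: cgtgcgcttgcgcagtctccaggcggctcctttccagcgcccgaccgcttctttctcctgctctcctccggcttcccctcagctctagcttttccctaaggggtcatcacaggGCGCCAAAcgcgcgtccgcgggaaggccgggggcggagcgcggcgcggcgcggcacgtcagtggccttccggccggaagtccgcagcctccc

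The MCM6 stretch held E2F letters at 2 places, at each of which both orientations overlapped. The MCM2 stretch likewise held overlapping letters in both orientations, and the RBL1 stretch held 2 separate matches. Short stretches around the E2F letters (capitals) are given for genes whose promoter peaks are described in the following paragraphs, and for CDC6, which had no peak.
RBL1, chr20:37096005-37096034, minus strand: cagctgcagatTTTCGCGCgcTTTGGCGCa
MCM2, chr3:127598402-127598431, plus strand: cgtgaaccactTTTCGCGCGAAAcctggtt
MCM3, chr6:52284728-52284757, minus strand: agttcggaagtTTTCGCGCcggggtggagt
MCM7, chr7:100101388-100101417, minus strand: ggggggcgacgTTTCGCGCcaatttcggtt
CDT1, chr16:88803743-88803772, plus strand: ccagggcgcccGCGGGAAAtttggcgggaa
CDC6, chr17:40287875-40287904, plus strand: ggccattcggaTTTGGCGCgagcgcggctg

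To ask whether I-BET151 altered H3K27ac at these genes, peaks were first counted at promoters, defined as peaks within 3 kb of an annotated start. A promoter peak was present in 39 and 43 of the 54 members in DMSO replicates 1 and 2, and in 45 and 47 members in I-BET151 replicates 1 and 2. The mean was 41 ± 2.83 members in DMSO and 46 ± 1.41 in I-BET151 (SD, n = 2), and the groups did not overlap. Over all protein-coding genes the direction was the opposite, with 10218 and 10414 genes in DMSO and 9971 and 9812 in I-BET151. The difference for the members was 3 when DMSO replicate 1 was left out. Promoter peaks were called in all 4 libraries at 38 of the 47 members that had any. Promoter peaks in both I-BET151 libraries and neither DMSO library were found at 2 members, CCNE2 and E2F2, and the reverse at 0 members, where 1.65% and 4.01% of all genes with a promoter peak showed these patterns.

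CCNE2 encodes cyclin E2, a partner of CDK2 at the entry to S phase. It had 0 bp covered in both DMSO libraries, and 773 and 957 bp in I-BET151 replicates 1 and 2. The fold enrichment over input was 4.53 and 3.32, from 159 and 177 ChIP reads at the summit. E2F2, an activating E2F factor, likewise had 0 bp in both DMSO libraries and 262 and 455 bp in the I-BET151 libraries, at 3.05-fold and 3.17-fold. Its region, chr1:23530732-23531220, lay in an untranslated exon just downstream of the printed stretch. E2F2 had 130 and 150 reads at the summit, and the medians over all peaks at the members were 166 and 195 reads and 5.82-fold and 5.91-fold in these libraries.

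Another 5 members had a promoter peak in DMSO replicate 2 but missed one in DMSO replicate 1. BUB1 is a spindle checkpoint kinase, and its peaks were present only in DMSO replicate 2 (288 bp) and I-BET151 replicate 2 (275 bp). The remaining 4 had promoter peaks in the other 3 libraries. MCM6, a helicase subunit, was covered over 0 and 374 bp in DMSO, and over 468 and 596 bp in I-BET151. POLA1, the catalytic subunit of the polymerase that lays down primers, was covered over 0 and 254 bp against 303 and 376 bp. E2F1, the first described activating E2F, was covered over 803 and 1383 bp against 1223 and 1243 bp, so that the groups overlapped, and 1 of its 2 regions had its nearest start at NECAB3. MCM2 is the fourth of these genes and is described below with the tests. ORC1, the largest subunit of the origin recognition complex, missed its promoter peak in DMSO replicate 2 alone and was covered over 910 and 599 bp against 1230 and 881 bp. MCM10, which helps start the fork, had a peak only in I-BET151 replicate 2 (328 bp, 4.36-fold). Peaks were absent from the gene body with 10 kb flanks in all 4 libraries at 7 members: the licensing genes CDC6, GINS2, GINS4, ORC3 and ORC4, the cyclin gene CCNE1 and the mitotic kinase gene PLK1. E2F letters stood in the promoter windows of 3 of these, CDC6, GINS2 and ORC3.

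**Figure D1:**
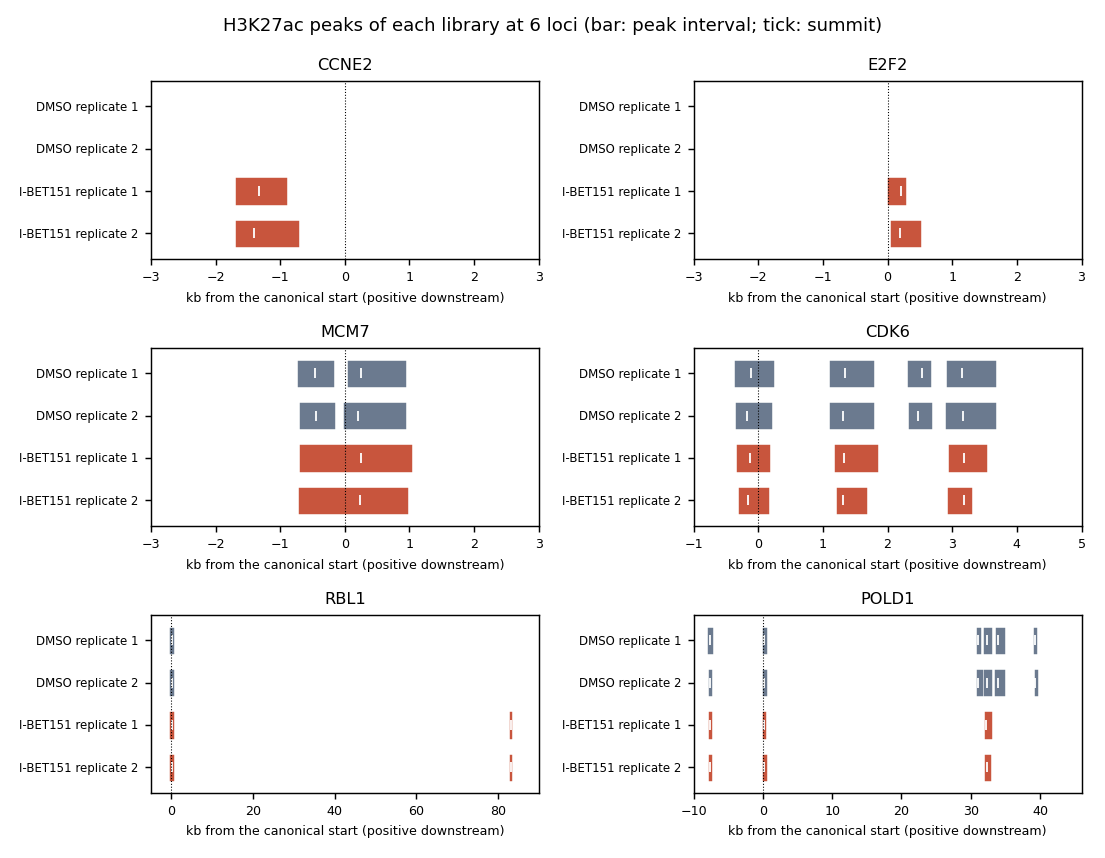
Peak intervals (bars) and summits (ticks) of each of the 4 libraries at 6 genes, against distance in kb from the canonical start, positive downstream. CCNE2 and E2F2 have bars in the I-BET151 libraries alone, MCM7 has 2 separate bars in DMSO and 1 in I-BET151, CDK6 loses 1 of its 4 bars, RBL1 gains a distant one, and POLD1 loses bars in its last part.

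The length covered by peaks in the gene body with 10 kb flanks was compared next. Of the 47 members with any coverage, 16 (34.0%) had both I-BET151 libraries above both DMSO libraries and 9 (19.1%) had both below. Over all 12509 genes with coverage these shares were 13.4% and 39.2%. With 50 kb either side the balance of the members turned, to 13 higher and 17 lower of 51, against 12.5% and 44.3% of all genes. Without I-BET151 replicate 2, 27 members were higher and 12 lower (30.2% and 45.3% of all genes), and without I-BET151 replicate 1, 22 were higher and 16 lower (18.3% and 58.2%). The median difference was 24 bp for the members and -47.5 bp for all genes. Summed over the members, however, covered length was 49.1 and 51.6 kb in DMSO against 50.2 and 49.3 kb in I-BET151, or 50.4 ± 1.76 against 49.8 ± 0.69 kb (SD, n = 2), a difference smaller than the spread. Its direction turned when 1 DMSO library was left out, when the window was the gene body alone, or when lists were cut to equal length. The differences above 0 were many and mostly small, whereas POLD1 alone was lower by 2507.5 bp. Within 3 kb of the starts alone, a window added after seeing the data, 17 members were higher and 6 lower of 47, against 14.2% and 36.5% of all genes.

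**Figure D2:**
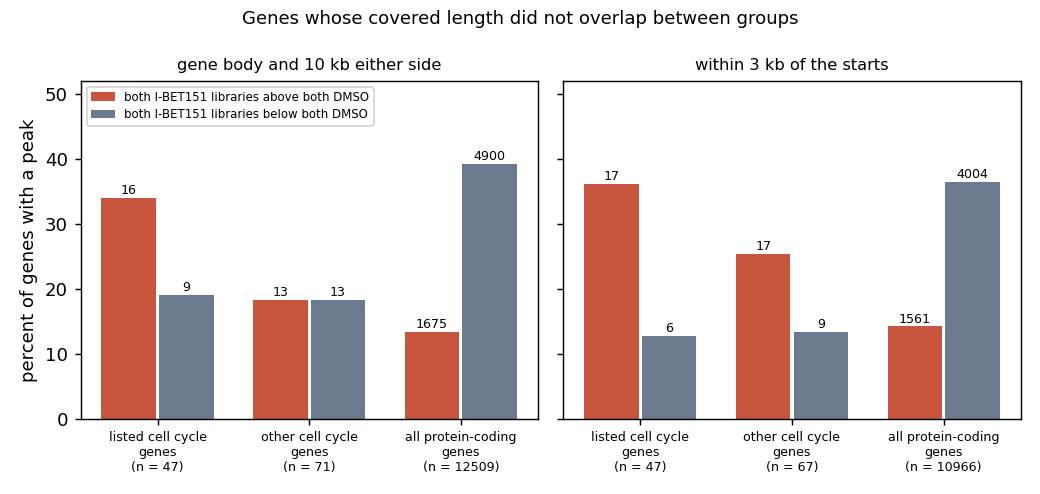
Percent of genes with a peak whose covered length was higher (red) or lower (grey) in both I-BET151 libraries than in both DMSO libraries, for the listed members, 78 other cell cycle genes and all protein-coding genes; counts stand above the bars. The higher share exceeds the lower one for the listed members in both windows, and the reverse holds for all genes.

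**Figure D3:**
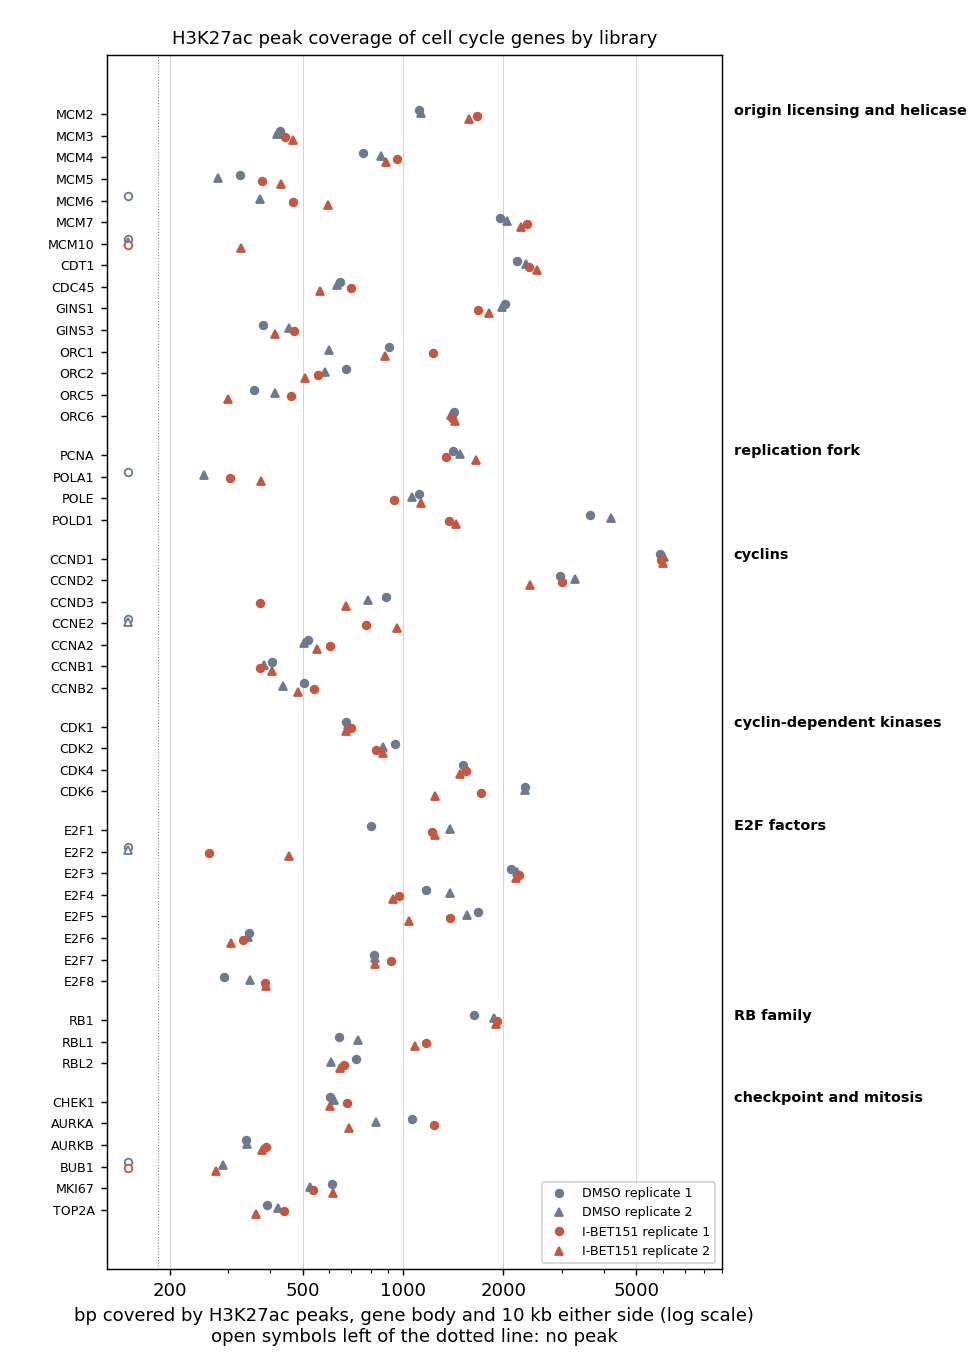
Covered length in bp (log scale) of each of the 47 members with a peak, by role, 1 symbol per library (grey DMSO, red I-BET151; circle replicate 1, triangle replicate 2; open symbols, no peak). Red symbols lie to the right of grey ones at most MCM genes and to the left at POLD1, CDK6, E2F4 and E2F5.

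By role, the licensing and helicase genes had 7 higher and 2 lower members of 15 with coverage (46.7% and 13.3%). Over all genes these shares were 13.4% and 39.2%. All 7 of the higher ones were MCM genes or CDT1. MCM2, MCM3, MCM4, MCM5, MCM6 and MCM7 form the hexamer that unwinds DNA, and coverage of each was higher in both I-BET151 libraries. Coverage at MCM3 was 428 and 418 bp in DMSO against 443 and 469 bp in I-BET151, a narrow margin. At MCM7 it was 1959 and 2044 bp in DMSO against 2359 and 2258 bp in I-BET151. Its promoter carried 2 peaks in each DMSO library and 1 broad peak of 1725 and 1661 bp in the I-BET151 libraries. CDT1, the loading factor, had 2189 and 2342 bp against 2379 and 2516 bp. The longer of the 2 regions at CDT1 had its nearest start at APRT. The 2 lower genes were GINS1 (2025 and 1973 against 1673 and 1811 bp) and the origin recognition subunit gene ORC2 (676 and 584 against 555 and 509 bp). At GINS1 the longer of the 2 regions had its nearest start at ABHD12. Among the 6 that overlapped, CDC45 had 648 and 635 bp in DMSO against 699 and 563 bp in I-BET151, and ORC5, one of the weakest members by fold (3.46, 3.25, 3.85 and 2.81), had 357 and 413 against 461 and 299 bp.

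At the replication fork, PCNA, the sliding clamp, was covered over 1408 and 1484 bp in DMSO against 1347 and 1652 bp in I-BET151, with no separation of the groups. Both of its regions called in every library had their nearest start at another gene (TMEM230 and CDS2), and the region nearest to PCNA itself was called in I-BET151 replicate 2 alone. POLD1, the catalytic subunit of a replicative polymerase, showed the largest loss, described with the tests below.

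Of the cyclins with coverage, CCNE2 and CCNA2 were higher (28.6%), CCND3 was lower (14.3%) and 4 overlapped. Over all genes 13.4% were higher and 39.2% lower. CCND1, encoding cyclin D1, had the most coverage of all members: 5877 and 6051 bp in DMSO against 5940 and 6004 bp in I-BET151, a difference of 8 bp. The fold of its strongest peak was 8.01 and 11.7 against 15.8 and 14.3, but the first value came from a peak upstream of the start and the others from a peak downstream of it. At the downstream peak DMSO replicate 1 had 6.56. CCND2 coverage was 2945 and 3274 bp against 2988 and 2403 bp. CCND3 was lower in both I-BET151 libraries in coverage and fold, with 892 and 787 against 373 and 673 bp, and 6.96-fold and 9.67-fold against 3.99-fold and 4.17-fold. The reads at that summit, scaled to library depth (RPM), overlapped (15.7 and 16.4 against 16.8 and 13.7), while the input level was 6 and 4 scaled reads in DMSO against 12 and 8 in I-BET151. Of its 2 regions, the one called in every library had its nearest start at TAF8. Of the 3 D-type cyclin genes, whose products pair with CDK4 and CDK6, 1 was thus lower in coverage and 2 overlapped.

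None of the 4 kinase genes was higher and 2 (50.0%) were lower, against 13.4% and 39.2% of all genes. CDK6 had 2324 and 2315 bp in DMSO against 1717 and 1244 bp in I-BET151. CDK2 had 945 and 874 bp against 830 and 869 bp, with 5 bp between the nearest libraries of the groups, while in the gene body alone it was 26 bp higher and its fold was higher (2.98 and 2.75 against 3.77 and 4.85). The input level at the CDK2 summit was 17 and 17 scaled reads in DMSO against 11 and 7 in I-BET151. Its RPM was lower, at 17.3 and 16.8 against 14.6 and 14.2. CDK1, the mitotic kinase, had 673 and 682 bp against 701 and 677 bp, and its groups overlapped.

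Of the 8 E2F genes, 3 were higher (E2F2, E2F7, E2F8) and 3 lower (E2F4, E2F5, E2F6), or 37.5% each, against 13.4% and 39.2% of all genes. The margin was narrow at E2F7 (818 and 823 bp in DMSO against 922 and 827 bp in I-BET151) and at E2F6 (345 and 344 against 332 and 305 bp). E2F4, a repressive E2F of resting cells, had 1168 and 1384 bp in DMSO against 975 and 934 bp in I-BET151. E2F5, of the same kind, had 1672 and 1551 bp against 1381 and 1042 bp. At both genes some of the covered length lay nearest to another start, that of MATCAP1 and of RBIS. In the gene body alone E2F4 was lower by 11.5 bp, in place of 321.5 bp, and E2F5 was 25 bp higher in I-BET151. E2F8, an atypical repressive E2F with a weak promoter peak, had 290 and 347 bp against 386 and 389 bp. In the RB family, the pocket proteins that hold E2F in check, RB1 was higher (1632 and 1871 against 1918 and 1894 bp, but by 14 bp within 3 kb of its starts, its other region lying nearest to RCBTB2), RBL1 was higher and RBL2 overlapped. Of the 6 checkpoint and mitosis genes with coverage, AURKB alone was higher (16.7%, against 13.4% of all genes) and none was lower (against 39.2%). MKI67, which encodes the proliferation antigen Ki-67, had 611 and 525 bp in DMSO against 538 and 616 bp in I-BET151, with full overlap. With 2 libraries per group, the two-sided exact permutation test of a single gene cannot give less than p = 0.33.

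Single genes were therefore tested by limma across all 10672 genes covered in every library, with Benjamini-Hochberg adjustment. The fit called 2 of the 41 members tested higher and 1 lower, where 0.815% of all genes were called higher and 4.77% lower. The 6 members covered in some libraries only, CCNE2 and E2F2 among them, could not enter this fit. With 200 bp added so that all 47 could be tested, CCNE2 was called as well (log2 difference 2.41 on the scale with 200 bp added, adjusted p = 0.0123 by limma), making 3 higher and 1 lower. Over all 12509 genes in that fit, 275 were called higher and 1053 lower. With 50 kb either side, CDT1 and MCM5 were called lower (log2 differences -0.85 and -1.30, adjusted p = 0.0137 and 0.0205 by limma) beside POLD1, and MCM2 alone higher. That fit tested 46 members and 13563 genes in all, of which 1450 were called lower and 180 higher. At an unadjusted p under 0.05 the counts were 4 members in each direction, where 3.94% of all genes were higher and 16.8% lower. The members' median log2 difference in covered length was 0.02, and that of all genes was -0.07. With each library centred on its median, the fit still had 2 members higher and 1 lower, while over all genes it had 135 higher and 315 lower in place of 87 and 509, and the median of all genes moved to 0.07. At an unadjusted p under 0.05 the centred fit had 12 members higher and 2 lower, where 11.8% of all genes were higher and 11.1% lower.

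RBL1, encoding the pocket protein p107, was covered over 645 and 733 bp in DMSO, and over 1175 and 1089 bp in I-BET151. The log2 difference was 0.72 ± 0.10 (SE), with an adjusted p of 0.0494 by limma. Part of the rise was a region gained in an intron, chr20:37012729-37013096, which lay 55157 bp from the nearest start, one of RBL1 itself. This region had 54 and 68 ChIP reads at its summit (5.54-fold and 5.56-fold). Within 3 kb of the starts the log2 difference was 0.22 (adjusted p = 0.364 by limma). The promoter peak had a fold of 3.27 and 3.64 in DMSO and of 13.5 and 7.17 in I-BET151, a difference that did not pass the adjusted threshold. The input level at that summit was 16 and 14 scaled reads in DMSO against 5 and 9 in I-BET151. Its RPM was 17.96 and 18.5 against 26.4 and 26.5, so fold and reads differed in the size of the rise.

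MCM2 was covered over 1115 and 1134 bp in DMSO, and over 1661 and 1581 bp in I-BET151, a log2 difference of 0.53 ± 0.06 (SE, adjusted p = 0.0349 by limma). With peaks of −log10 q of at least 5 alone it was 0.33 (adjusted p = 0.433 by limma). The promoter peak was absent from DMSO replicate 1, and a second peak, nearest to TPRA1, was absent from DMSO replicate 2, so each DMSO library lacked a different peak that both I-BET151 libraries had. Where present, the promoter peak had 17.99 RPM in DMSO replicate 2 and 27.3 and 29.9 in I-BET151.

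POLD1 was covered over 3630 and 4201 bp in DMSO, and over 1371 and 1445 bp in I-BET151, a log2 difference of -1.47 ± 0.09 (SE, adjusted p = 0.0222 by limma). Its promoter peak at the canonical start was called in every library. The 3 regions lost from its window were chr19:50415259-50416019, nearest to the start of ENSG00000142539, a gene with no symbol, and chr19:50417807-50419142 and chr19:50423543-50423846, both nearest to SPIB, a transcription factor gene of immune cells. Within 3 kb of the starts annotated to POLD1 the log2 difference was -0.95 (adjusted p = 0.0851 by limma). All 3 calls were lost when any 1 library was left out, as were those of all other genes.

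Merged over the libraries, the members held 82 regions, of which 61 were called in all 4. Regions with peaks in both I-BET151 libraries but in neither DMSO library numbered 3 (3.66%, against 2.81% of all 15752 regions), at E2F2, CCNE2 and RBL1. This count was 7 without DMSO replicate 2, and 5 without DMSO replicate 1, without I-BET151 replicate 1 or with lists of equal length. Regions called in both DMSO libraries and neither I-BET151 library numbered 5 (6.1%, against 8.6%). These were the 3 at POLD1, 1 of the 4 at CDK6 (chr7:92833909-92834259, in an intron and 125 bp from an annotated start, 89 and 105 reads) and 1 near RBIS in the window of E2F5. The lost count was 14 with 50 kb either side, 3 in the gene body alone, and 1 with lists of equal length or with peaks within 500 bp merged. Of the 82 regions 64 lay at a promoter of the member itself and 55 had its start as the nearest, while 40 had their summit in an intron, 21 in an untranslated exon, 14 in a coding exon and 7 between genes.

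The height of promoter peaks was compared in 38 members with a promoter peak in every library. By the authors' fold enrichment of the strongest promoter peak, 12 members were higher in both I-BET151 libraries and 2 lower, or 31.6% and 5.26% against 24.6% and 16.0% of all genes. The higher ones were MCM3, MCM5, MCM7, CDT1, CCND1, CCNA2, CDK2, CDK4, E2F7, RBL1, RBL2 and CHEK1, and the lower ones CCND3 and E2F6. At CDK4 and MCM7, as at CCND1, the strongest peak was not the same one in every library. At the canonical start of CDK4 the groups overlapped (6.53 and 7.87 against 9.38 and 6.30). They also overlapped at its other peak, nearest to MARCHF9 (4.59 and 8.16 against 7.64 and 11.3). At MCM7 the DMSO values came from an upstream peak, and the peak at the I-BET151 summit had 4.24 and 4.82 in DMSO. The limma fit over 9162 genes called 0 members in either direction (0.0218% of all genes were called in each). At an unadjusted p under 0.05 it had 3 members higher (RBL1, MCM3 and MCM5) and 1 lower (CCND3), where 6.08% and 4.02% of all genes passed. The input level at MCM3 was 13 and 10 scaled reads in DMSO against 5 and 7 in I-BET151. At MCM5 it was 15 and 10 against 10 and 11. The median log2 difference in fold was 0.23 for the members, with 29 above 0 and 9 below, and 0.07 for all genes. Fold is relative to the local input. In simulated data this fit recovered 0.0% of genes changed by 2 log2 units and 86.0% of those changed by 4. Each simulated gene took the spread of a gene picked at random, so these shares need not hold for the real genes. In the real fit the SE of the members ran from 0.328 (CDK2) to 0.403 (CDC45).

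ChIP reads at the summit, worked out from the deposited fold and p-value, were taken as a further measure chosen after seeing the data. They are not a ratio over local input, but the library totals that scale them were estimated through the input level. Counting the tallest promoter peak of each gene in RPM (ChIP reads for every 1000000 of the library), 17 of 38 members (44.7%) were higher in both I-BET151 libraries and 6 (15.8%) lower, against 26.5% and 31.3% of all genes. The limma fit called 9 members higher and 1 lower at an adjusted p under 0.05, where 6.64% of all genes were called higher and 12.8% lower. With each library centred on its median, 18 members were higher and 1 lower, and over all genes 2384 were higher and 1602 lower in place of 608 and 1175. Without DMSO replicate 1 the median log2 difference in RPM was 0.206 for the members and 0.062 for all genes. Without DMSO replicate 2 these medians were 0.036 and -0.082, so both moved with the library left out. The count of members called also differed between versions of the measure. An earlier version of the measure, tried first, took the strongest peak by fold and called 5 members higher (MCM5, MCM7, CCND1, E2F7, RBL1) and 1 lower (GINS1), against 3.41% and 4.11% of all genes. The tallest peak replaced it because the strongest peak by fold of a gene such as GINS1 was a different peak in different libraries. MCM3, CCNA2, CCNB2 and TOP2A had the same log2 differences in both versions (0.455, 0.395, 0.414 and 0.437). Their calls therefore differed through the error of the fit and not through the peak. The genes called with the tallest peak were MCM3, MCM5, MCM7, CDT1, CCNA2, CCNB2, E2F7, RBL1 and TOP2A (higher) and CDK6 (lower), and were singled out after their values were seen.

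Among these, MCM5 had the largest rise, with 12.6 and 12.0 RPM in DMSO and 19.9 and 18.0 in I-BET151. The log2 difference was 0.63 ± 0.15 (SE, adjusted p = 0.000295 by limma). The SE of this fit came almost wholly from the trend over all genes, rather than from the gene's own libraries. In the fit with the strongest peak by fold, the same MCM5 values gave an adjusted p of 0.0493 by limma. E2F7, an atypical E2F, had 21.0 and 22.8 against 30.4 and 33.5 RPM. RBL1 had 17.96 and 18.5 against 26.4 and 26.5 RPM, and MCM3 had 23.1 and 19.3 against 28.1 and 29.9. MCM5, E2F7 and RBL1 kept an adjusted p under 0.05 by limma with a replicate block, with centring and with the strongest peak by fold. The other 7 lost it in at least 1 of these settings. At MCM5, E2F7 and RBL1 the strongest peak by fold had the same RPM as the tallest, so that setting retested the same values. Without 1 library the log2 differences of MCM5, E2F7 and RBL1 ran from 0.477 to 0.694. MCM7 had 34.5 and 31.3 against 43.3 and 45.7 RPM. CCNB2, encoding the mitotic cyclin B2, had 22.2 and 21.95 against 27.97 and 30.98, and CCNA2, encoding cyclin A2 of S and G2 phase, had 18.7 and 18.8 against 23.1 and 26.4. TOP2A, the topoisomerase that untangles replicated DNA, had 20.98 and 18.7 against 26.0 and 27.6. CDT1 had 19.5 and 17.9 against 21.7 and 28.4, but its tallest summits lay at -312 and -330 bp from a start in DMSO and at 196 and 182 bp in I-BET151, so that different summits were compared.

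CDK6 was the member called lower, with 26.4 and 21.3 RPM in DMSO and 16.8 and 18.3 in I-BET151 (log2 difference -0.44 ± 0.13, SE, adjusted p = 0.00447 by limma). Without DMSO replicate 1 the adjusted p was 0.265 by limma, and with the strongest peak by fold it was 0.816. CDK2 and E2F4, lower in coverage, were also lower in reads in both I-BET151 libraries, while E2F5, lower in coverage, was higher in reads. PCNA had 36.7 and 33.1 against 35.5 and 36.5 RPM, and MKI67 had 21.5 and 18.7 against 21.3 and 22.3, so that neither separated. The PCNA value is of the peak nearest to CDS2. The estimated per-library totals that scale these values were higher in DMSO replicate 2 than in the other 3 libraries, and their part in the differences was not tested. The median log2 difference in RPM was 0.12 for the members and -0.01 for all genes.

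**Figure D4:**
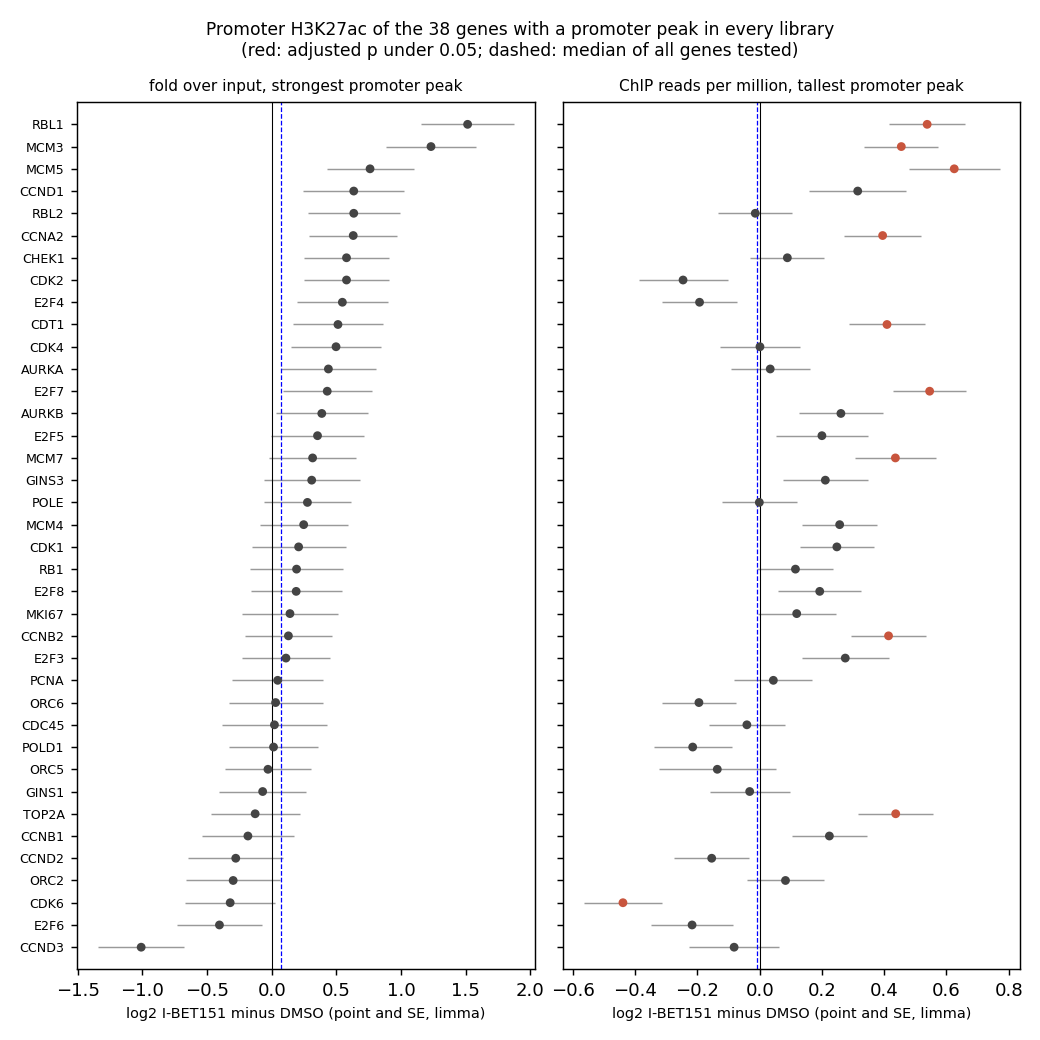
Log2 difference (I-BET151 minus DMSO, point and SE from limma) in promoter fold of the strongest peak (left) and in ChIP RPM of the tallest peak (right) for the 38 members with a promoter peak in every library, ordered by the left panel. Red points have an adjusted p under 0.05, of which there are 0 on the left and 10 on the right, and the dashed line is the median of all genes tested.

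E2F letters and coverage were set side by side as a description. Of the 12 members with a promoter window and higher coverage in both I-BET151 libraries, 8 held E2F letters, as did 10 of the other 32 members with a window. The letters were also present at genes that did not follow this pattern, among them GINS1, which was lower, PCNA and CDK1, which overlapped, and CDC6, which had no peak.

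The same measures were taken for 78 other genes of replication, mitosis and cell cycle control, a list drawn up apart from the 54. Of the 71 with coverage 13 were higher and 13 lower in both I-BET151 libraries (18.3% each, against 13.4% and 39.2% of all genes). The median difference was -9 bp. Within 3 kb of the starts 17 of 67 were higher and 9 lower (25.4% and 13.4%, against 14.2% and 36.5%). The limma fit of covered length called 1 of 63 higher and 2 lower, where 0.815% and 4.77% of all genes were called. CDC25A, a phosphatase that activates the cyclin-dependent kinases, had 755 and 697 bp in DMSO against 1175 and 1138 bp in I-BET151 (log2 difference 0.67, adjusted p = 0.0356 by limma). RECQL4, a helicase of replication start, had 6043 and 6297 against 2915 and 2955 bp (log2 difference -1.07, adjusted p = 0.0147 by limma). TK1, thymidine kinase, had 939 and 940 against 589 and 584 bp (log2 difference -0.68, adjusted p = 0.0294 by limma). Its coverage in DMSO lay outside its promoter, where a peak was called in I-BET151 replicate 2 alone (4.50-fold). Next in size among genes with separate groups were UHRF1 and RRM2, higher by 332 and 297.5 bp, and POLD4, lower by 326 bp. In promoter fold the limma fit called 0 of 58, where 0.0218% of all genes were called in each direction. The median log2 difference was 0.22, against 0.07 for all genes.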

How the data were processed

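H3K27ac ChIP-seq peak lists of 2 DMSO and 2 I-BET151 libraries were used. Per the study's methods and the submitters' processing notes, the authors aligned reads to hg38 with Bowtie2 2.2.5, removed duplicates with Picard and called peaks per library against input with MACS2 2.1.2. For each peak the deposited lists give intervals, a summit, a score, the summit's fold (a ratio over local input), and −log10 of the p-value and q-value, all by the authors' caller. A fixed threshold leaves out weaker peaks, more so in shallower libraries, and duplicate removal caps their height. The deposited score was not used, and 0 columns of per-sample values were left out for want of a label.

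Gene members and lists were chosen with earlier results of these data known. Peaks sharing at least 1 bp with a gene body and 10 kb either side (GENCODE release 44) gave the covered length, and those within 3 kb of a start the promoter peak. By position, 79.8 to 84.1% of summits lay at promoters, against 10.9 to 11.6% after a shift of 1 Mb. ChIP reads were solved from fold and p-value (tolerance 0.0003 scaled reads), which resolved 99.9% of peaks in each list. Library totals were estimated from the lowest solved input level, the shortest peak, the genome size and the scale between ChIP and input. The deposited lists hold no counts, so log2 covered length and log2 fold were fitted by limma 3.58.1 (R 4.3.3, empirical Bayes with a trend, treatment only) over all genes present in every library, with Benjamini-Hochberg adjustment at 0.05. On simulated data for 10672 genes, the fit of covered length recovered 44.0% of genes changed by 1 log2 unit and 78.5% of those changed by 2. Other steps used Python 3.11.15. Named were members without a promoter peak in some library, those called by limma or with a gained or lost region, the 8 largest non-overlapping differences each way, the 3 highest and lowest in coverage and fold, and 7 role examples. Alternatives were other windows, peak filters, regions, centring, 200 bp added to covered length, promoter definitions, each library left out and a replicate block. Chosen after seeing the data were coverage within 3 kb of starts and 2 forms of reads at the summit scaled to library depth (RPM).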

Additional observations from a re-analysis of the deposited data

How the results depend on the processing

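Of 290 recomputed differences in covered length at 29 named genes, 264 kept their direction. Reversals, in bp, occurred with 50 kb either side at PCNA (-384.5), CDT1 (-2305.5), CCND1 (-344.5) and CDK1 (-147.5), in the gene body alone at CDK2 (26) and E2F5 (25), within 3 kb of starts (chosen after seeing the data) at CDK2 (26) and E2F5 (50.5), with lists of equal length at ORC5 (201.5), CCND1 (-237.5) and CDK2 (69.5), and at −log10 q of at least 5 at CCND1 (-237.5). With 1 library left out, differences ran from -99 to 206 at PCNA, -78.5 to 57.5 at CDC45, -86 to 76 at ORC5, -79 to 95 at CCND1, -0.5 to 23.5 at CDK1, -150 to 430 at E2F1, -150.5 to 137.5 at BUB1 and -34 to 52 at MKI67.

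The summed difference over the members (-0.64 kb) was 1.575 kb in the gene body alone, 1.142 with lists of equal length, 1.526 within 3 kb of starts, -9.232 with 50 kb either side and -1.883 to 0.607 without 1 library, the highest without DMSO replicate 2. Members higher in coverage numbered 21 to 27 without 1 library (27 without I-BET151 replicate 2), and those lower 10 to 16 (16 without I-BET151 replicate 1) and 17 with 50 kb either side. Gained regions numbered 5 with lists of equal length and 4 to 7 without 1 library. Lost regions numbered 3 in the gene body alone, 14 with 50 kb either side, 1 with lists of equal length and 1 with peaks within 500 bp merged. The difference in members with a promoter peak stayed between 3 and 7.5 under all alternatives run. The limma count of members with higher coverage (2) was 1 in the gene body alone (47 of 8903 genes in all) and with 50 kb either side (180 of 13563). It was also 1 at −log10 q of at least 5 (76 of 10412) and with lists of equal length (96 of 10240). Within 3 kb of starts it was 0 (47 of 9162), and with 200 bp added it was 3 (275 of 12509). The count of lower members (1) was 0, 3, 2, 1, 0 and 1 under these, against 223, 1450, 521, 346, 228 and 1053 over all genes. Without any 1 library both counts were 0 (lowest 0, highest 0), as over all genes, and the lone library was then assumed to vary like the others. For promoter fold the counts (0 and 0) became 9 and 1 with RPM at the tallest peak and 5 and 1 with those at the strongest peak, and stayed 0 otherwise. With RPM of the tallest peak, chosen after seeing the data as were its alternatives, higher members (9) numbered 5 to 13 without 1 library (5 without DMSO replicate 2 or I-BET151 replicate 2), 18 with centring and 5 with the strongest peak, and lower members (1) numbered 0 to 2 without 1 library (0 without DMSO replicate 1, 2 without I-BET151 replicate 2). Limma adjusted p-values ran from 0.0252 to 0.364 for RBL1, from 0.027 to 0.433 for MCM2 and from 0.015 to 0.148 for POLD1. The causes were not tested, except that leaving out a library leaves fewer samples.

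With the replicate number as a block, limma called 0 members higher and 0 lower in coverage, and 0 genes in all, and the summed difference was -0.639 kb. With RPM of the tallest peak the block left 6 members higher and 1 lower. Replicate differences of the groups correlated at 0.085 over genes in covered length, at 0.045 in fold and at 0.095 in RPM, and the labels give the numbers no meaning, so the numbers were not taken to pair the samples. Depth limits weak peaks: at the members the smallest had 44 to 68 ChIP reads at the summit.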
